A study of Mus musculus with 6 samples.

Results

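The genes described here are 10 genes of the MHC class I antigen presentation pathway, measured by RNA-seq in mouse osteoclasts grown from C57BL/6 bone marrow. They are the heavy-chain genes *H2-K1* and *H2-D1*, the light-chain gene *B2m*, the peptide transporter genes *Tap1* and *Tap2*, the loading gene *Tapbp*, the immunoproteasome genes *Psmb8*, *Psmb9* and *Psmb10*, and *Nlrc5*, a transactivator of class I genes. They were picked by symbol from the deposited count table, which held each of the 10 once among 23204 genes. The comparison asks whether their transcripts differ between 3 libraries labelled Tet2Rank–/–; Tet3aRank+/– and 3 wild-type libraries. That label was read as deletion of both copies of *Tet2* and 1 copy of *Tet3*, which encode enzymes that oxidise methylated cytosine. The labels give 1 sample of each genotype as female and 2 as male. Marrow cells spent 2 days in M-CSF. The cells that adhered then received RANKL as well, the pair of cytokines that drives osteoclast formation. The labels tie no sex to a column, give no age, do not say what Rank or the a in Tet3a means, and do not name the deleted parts or the cells in which deletion takes place.

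Osteoclasts belong to the monocyte lineage, and like other nucleated cells they carry class I molecules. The proteasome cuts cytosolic proteins into peptides, the TAP transporter moves the peptides into the endoplasmic reticulum, and tapasin holds empty class I molecules there until a peptide fits. A loaded heavy chain with beta-2 microglobulin then travels to the surface, where CD8 T cells and natural killer cells read it. Interferon gamma raises the pathway, in part through NLRC5, and exchanges the constitutive catalytic proteasome subunits for immunoproteasome subunits.

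Each library has a number at the head of its column, used here as its name: 2, 3 and 5 carried the mutant label, and 1, 4 and 6 were wild type. Total counts lay between 8794973 and 14267135 per library. Levels are given as CPM, counts divided by the library size after TMM scaling, and the test is edgeR's quasi-likelihood test with Benjamini-Hochberg adjustment over all 14040 genes that passed the count filter, at a threshold of 0.05. Libraries 5 and 6 have a second number in their column names, and they also lay apart from the other 4 on the leading principal component, which held 70.0% of the variance. The split holds both genotypes on either side and is named the naming batch; the labels do not say what the second number is. *Tet2* averaged 52.0 ± 6.32 CPM in the libraries labelled mutant and 77.3 ± 4.89 CPM in wild type, and *Tet3* 153 ± 11.4 and 131 ± 12.4 CPM (SD, n = 3 each). *Tet2* was lower with no overlap, at a log2 fold change of -0.57 (edgeR adjusted p = 0.0924, SE 0.120); with a term for the naming batch its edgeR adjusted p was 0.0400, which passes the threshold. *Tet3* was not lower (0.23, edgeR adjusted p = 0.360, SE 0.117), so the genotype is written as labelled throughout; whether the counted exons lie in the deleted parts is not known. The 10 listed osteoclast markers were all detected, but 10 of 10 had a lower mean in the libraries labelled mutant. Their summed level was 2966, 8448 and 12373 CPM in libraries 2, 3 and 5, against 18416, 15142.5 and 39699 CPM in libraries 1, 4 and 6. Lower values with no overlap were found for 7 of the 10, against 16.9% of all genes tested. By edgeR 0 of the 10 were called (5 lower at unadjusted p under 0.05, against 12.4% of all genes), with the naming batch term 7 fell, against 5.6%, and by DESeq2 3 fell, against 6.0%. The part of this difference in the class I values was not tested.

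The stretches of promoter below show what the 2 heavy-chain genes and *B2m* share upstream of their start sites. RefSeq promoter windows on GRCm38.p6, the build of the deposited coordinates, reach from 250 bases before to 50 bases after a start site and were found for 8 of the 10 genes. Class I promoters are known for an X2 element, a binding site of the CREB family, followed by a Y element, a reversed CCAAT box bound by NF-Y. In the following sequences, read 5′ to 3′ on the gene strand, the capitals mark TGACG, the core of the X2 element, and ATTGG, the reversed CCAAT.
*H2-K1*, chr17:34000354-34000393, minus strand: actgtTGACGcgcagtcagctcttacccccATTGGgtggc
*H2-D1*, chr17:35262988-35263027, plus strand: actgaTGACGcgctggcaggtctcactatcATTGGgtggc
*B2m*, chr2:122147604-122147643, plus strand: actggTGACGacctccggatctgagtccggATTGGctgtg
*H2-M3*, chr17:37270183-37270222, plus strand: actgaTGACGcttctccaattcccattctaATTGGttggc
In each of these the 2 elements stood 20 bases apart, although *B2m* lies on chromosome 2 and the other 3 genes on chromosome 17. *H2-M3*, a non-classical heavy-chain gene that presents formylated bacterial peptides, is shown because it was the only other gene of the lists below with this spacing. Of 32851 promoter windows of the same length, 19 (0.0578%) held TGACG, 20 bases and ATTGG on the gene strand, the spacing being chosen after these sequences were read. Over spacings of 10 to 40 bases, the only other listed genes found were *H2-Q7* at 19 bases and the class II gene *H2-Aa* at 21 bases. By themselves the elements are common, since 20.8% of all windows held TGACG and 37.4% held CCAAT on either strand.

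A second stretch was almost the same in both heavy-chain genes and is shown for that reason. Its first capitals mark a kappa B-type motif, GGG and TTCCC with any 2 bases between them, a form of the NF-kB binding site. Its second capitals mark the reverse complement of GAANNGAAA, a form of the motif bound by interferon regulatory factors.
*H2-K1*, chr17:34000421-34000466, minus strand: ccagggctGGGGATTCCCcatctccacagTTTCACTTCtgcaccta
*H2-D1*, chr17:35262915-35262960, plus strand: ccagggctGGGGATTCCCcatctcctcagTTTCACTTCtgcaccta
Searched on both strands, the kappa B-type motif was in 1.75% of all windows and GAANNGAAA in 7.52%, and among the 8 genes only *H2-K1* and *H2-D1* held either. *Tap1* and *Psmb9* are transcribed away from each other, and their windows share the stretch below, given on the *Tap1* strand with CCAAT and TGACG in capitals.
*Tap1* and *Psmb9*, chr17:34187306-34187580, plus strand: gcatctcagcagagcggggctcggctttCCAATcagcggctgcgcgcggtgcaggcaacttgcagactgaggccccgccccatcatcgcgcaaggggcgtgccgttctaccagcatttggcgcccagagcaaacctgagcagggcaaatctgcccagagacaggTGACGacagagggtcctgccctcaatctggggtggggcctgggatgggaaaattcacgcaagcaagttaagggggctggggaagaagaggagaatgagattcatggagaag
The gamma-activated motif TTCNNNGAA, present in 8.30% of all windows, was found among the 8 genes only in the *Psmb8* window. A match here describes letters in a window and does not show a site in use.

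**Figure D1:**
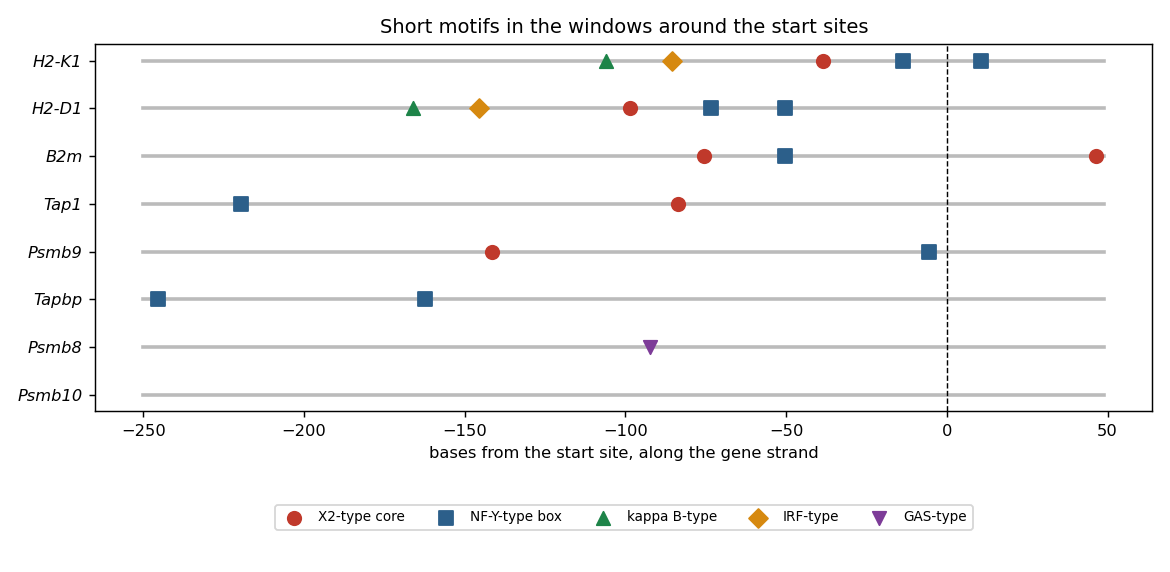
Positions of 5 short motifs in the promoter windows of the 8 genes with a RefSeq entry, from 250 bases before to 50 bases after the start site at 0, along the gene strand; for *H2-K1* the first of its start sites is drawn. The X2-type core and the NF-Y-type box follow each other at the same distance in *H2-K1*, *H2-D1* and *B2m*, and the kappa B-type and IRF-type motifs sit together in *H2-K1* and *H2-D1*.

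The genes of the classical class I molecule, its 2 heavy chains and its light chain, were higher on average in the libraries labelled mutant, though none of the 10 genes passed the test. *H2-K1* (ENSMUSG00000061232, chromosome 17, 33996017 to 34000347, minus strand, mm10) stood at 1306, 1027 and 1154 CPM in libraries 2, 3 and 5 labelled mutant, against 948, 663 and 650.2 CPM in wild-type libraries 1, 4 and 6. *H2-D1* (ENSMUSG00000073411, chromosome 17, 35262730 to 35267499, plus strand) stood at 3173, 2380.0 and 2989 CPM in the libraries labelled mutant, against 2151, 1390.1 and 1508 CPM in wild type. For both heavy chains every library labelled mutant lay above every wild-type library, with library 3 lowest of its genotype and library 1 highest of its own. *B2m* (ENSMUSG00000060802, chromosome 2, 122147686 to 122153083, plus strand) stood at 2829, 1803 and 2389 CPM in the libraries labelled mutant, against 2164, 1353 and 1065 CPM in wild type. Its genotypes overlapped, because library 3 lay below library 1.

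The means were 1163 ± 139.9 against 754 ± 168 CPM for *H2-K1* and 2847 ± 415 against 1683 ± 409 CPM for *H2-D1* (SD, n = 3 each). *B2m* averaged 2340.3 ± 515 CPM in the libraries labelled mutant and 1528 ± 569.95 CPM in wild type (SD, n = 3 each). As log2 fold changes of the libraries labelled mutant over wild type these were 0.63 for *H2-K1* (edgeR adjusted p = 0.160, SE 0.199), 0.76 for *H2-D1* (edgeR adjusted p = 0.142, SE 0.222) and 0.62 for *B2m* (edgeR adjusted p = 0.343, SE 0.307). They equal 1.54-fold, 1.69-fold and 1.53-fold, and none passed the threshold. By a two-sided exact permutation test p was 0.1 for *H2-K1* and *H2-D1*, the smallest that 3 libraries against 3 can give, and 0.2 for *B2m*. In bulk RNA a change in the share of a cell type and a change in RNA per cell cannot be told apart.

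The regulator of these genes showed the same order of genotypes. *Nlrc5* (ENSMUSG00000074151, chromosome 8, 94434356 to 94527272, plus strand), whose protein assembles on the X and Y elements of class I promoters, stood at 102, 73.5 and 79.5 CPM in libraries 2, 3 and 5, against 68.5, 54.7 and 43.1 CPM in libraries 1, 4 and 6. The genotypes did not overlap, and library 2 was again the highest. Library 6 was the lowest, as for *H2-K1* and *B2m*, while for *H2-D1* library 4 was the lowest. Its log2 fold change was 0.62 (edgeR adjusted p = 0.170, SE 0.205, two-sided exact permutation p = 0.1), and its means were 85.0 ± 15.1 against 55.4 ± 12.7 CPM (SD, n = 3 each).

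**Figure D2:**
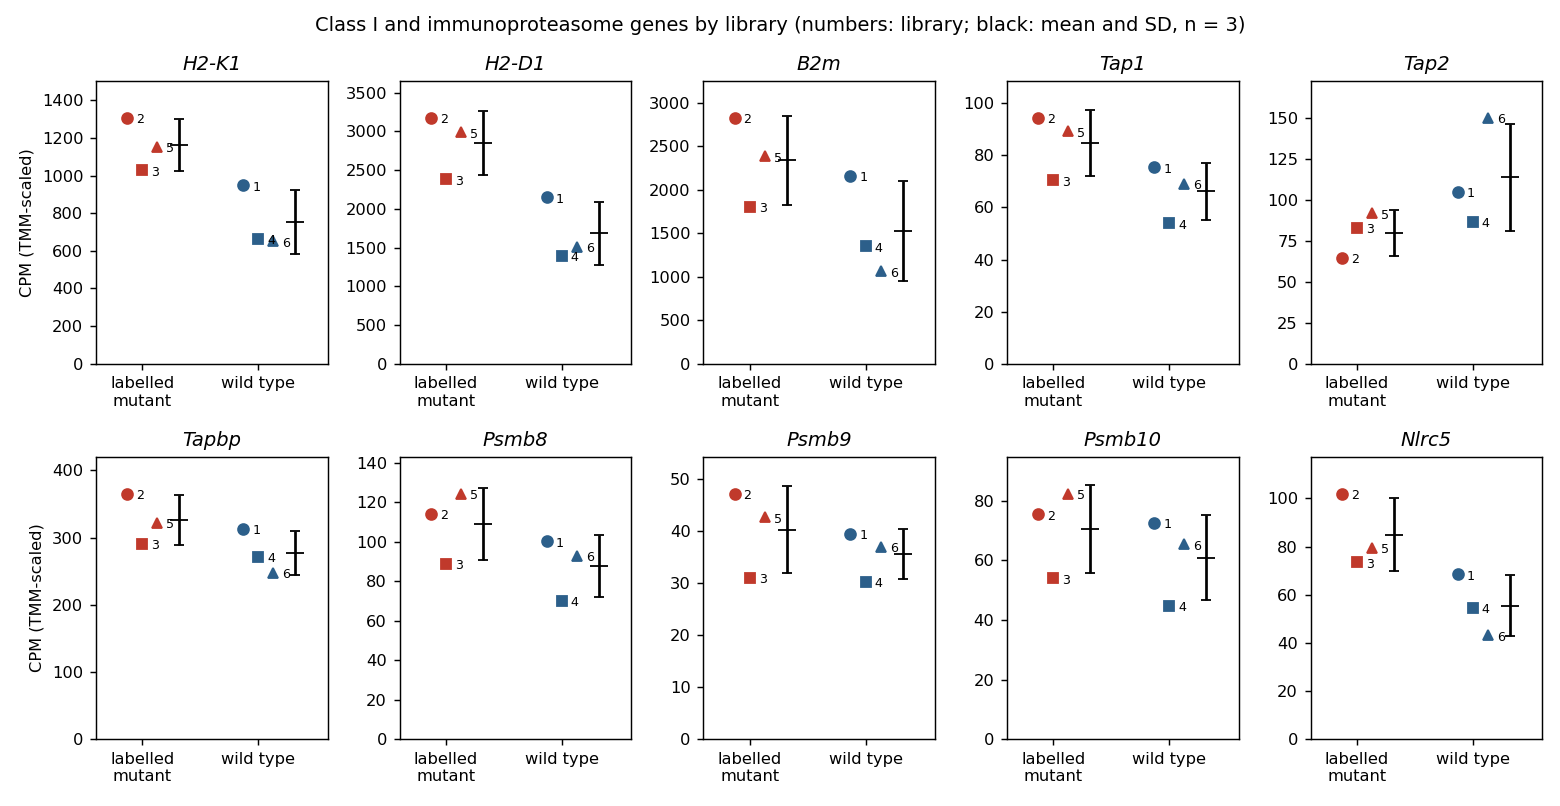
CPM of each of the 10 genes in every library on linear axes that start at 0, libraries labelled mutant on the left and wild-type libraries on the right, with the library number beside each point and the mean and SD in black (n = 3). The genotypes do not overlap for *H2-K1*, *H2-D1* and *Nlrc5*, and *Tap2* is the gene whose mean is lower in the libraries labelled mutant.

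The transporter genes went in opposite directions. *Tap1* (ENSMUSG00000037321, chromosome 17, 34187553 to 34197225, plus strand) stood at 94.4, 70.5 and 89.2 CPM in the libraries labelled mutant, against 75.5, 54.0 and 69.1 CPM in wild type. *Tap2* (ENSMUSG00000024339, chromosome 17, 34203527 to 34216321, plus strand), whose product pairs with that of *Tap1* to form the transporter, stood at 64.8, 83.0 and 92.0 CPM in the libraries labelled mutant, against 105, 86.6 and 150.3 CPM in wild type. Library 2 was the highest of all for *Tap1* and the lowest for *Tap2*. The log2 fold changes were 0.36 for *Tap1* (edgeR adjusted p = 0.317, SE 0.170) and -0.51 for *Tap2* (edgeR adjusted p = 0.298, SE 0.234), each with overlapping genotypes and an exact permutation p of 0.2. *Tap2* was the only gene of the 10 with a mean below wild type, and its extreme libraries, 2 and 6, were also those of the summed osteoclast markers given above; whether they are linked was not tested.

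*Tapbp* (ENSMUSG00000024308, chromosome 17, 33915899 to 33929292, plus strand), which encodes tapasin, stood at 365, 291 and 322 CPM in the libraries labelled mutant, against 313, 272 and 247 CPM in wild type. The genotypes overlapped and the log2 fold change was 0.23 (edgeR adjusted p = 0.446, SE 0.143).

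The 3 immunoproteasome subunit genes had small differences. *Psmb8* (ENSMUSG00000024338, chromosome 17, 34197721 to 34201454, plus strand), the subunit that takes the place of *Psmb5*, stood at 114, 88.8 and 124 CPM in libraries 2, 3 and 5, against 100.1, 70.2 and 92.8 CPM in libraries 1, 4 and 6. *Psmb9* (ENSMUSG00000096727, chromosome 17, 34181987 to 34187764, minus strand), which takes the place of *Psmb6*, stood at 47.3, 31.1 and 42.7 CPM in the libraries labelled mutant, against 39.5, 30.4 and 37.0 CPM in wild type. *Psmb10* (ENSMUSG00000031897, chromosome 8, 105935735 to 105938444, minus strand), which takes the place of *Psmb7*, stood at 75.3, 54.0 and 82.3 CPM in the libraries labelled mutant, against 72.6, 44.8 and 65.3 CPM in wild type. All 3 overlapped between genotypes, with library 3 low among those labelled mutant and library 4 the lowest of all. The log2 fold changes were 0.32 (edgeR adjusted p = 0.419, SE 0.184), 0.18 (edgeR adjusted p = 0.693, SE 0.187) and 0.21 (edgeR adjusted p = 0.708, SE 0.230) for *Psmb8*, *Psmb9* and *Psmb10*, and the exact permutation p was 0.3, 0.4 and 0.5.

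The ratio of each immunosubunit to the subunit it replaces does not depend on how libraries are scaled. *Psmb8* to *Psmb5* was 1.91, 0.949 and 1.26 in the libraries labelled mutant, against 1.03, 0.805 and 0.645 in wild type. *Psmb9* to *Psmb6* was 0.504, 0.371 and 0.359 against 0.376, 0.274 and 0.233, and *Psmb10* to *Psmb7* was 0.795, 0.511 and 0.721 against 0.538, 0.385 and 0.485, in the same order of libraries. Each ratio had a higher mean in the libraries labelled mutant, by 0.70, 0.50 and 0.51 on the log2 scale, and each overlapped between genotypes because library 1 lay above library 3 (for *Psmb9*, above library 5 as well). The two-sided exact permutation p was 0.2, 0.3 and 0.2, and 0.3 for each after adjustment over the 3 ratios. The denominators were lower on average, with log2 fold changes of -0.38 for *Psmb5* (edgeR adjusted p = 0.511), -0.34 for *Psmb6* (edgeR adjusted p = 0.450) and -0.29 for *Psmb7* (edgeR adjusted p = 0.237). Of the 75-base windows of *Psmb5* transcripts, 36.8% also occur in transcripts of other genes, so its counts, and the first ratio, depend on how the authors treated reads with several matches.

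**Figure D3:**
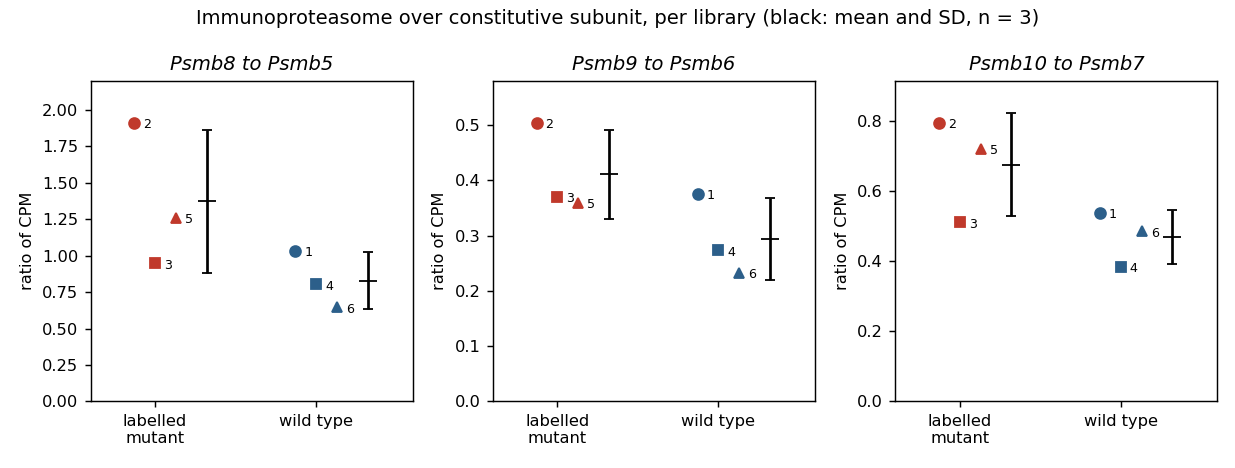
Ratio of CPM of each immunoproteasome subunit to its constitutive counterpart in every library, on linear axes from 0, with libraries labelled mutant on the left, wild type on the right, and the mean and SD in black (n = 3). Library 2 is the highest point in each panel, and the genotypes overlap in each.

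Counted over the 10 genes, 9 had a log2 fold change above 0 with a median of 0.34, where 46.8% of all genes tested lay above 0 and their median was -0.03. With edgeR 0 of the 10 were called, against 0.0712% of all genes tested, that is 0.0499% higher (7 genes) and 0.0214% lower (3 genes). Of the 10, 3 had higher values with no overlap between genotypes, against 9.91% of all genes, and 0 had lower values with no overlap, against 16.9%. Without a correction for the number of genes, 3 of the 10 (*H2-K1*, *H2-D1* and *Nlrc5*) had an edgeR p under 0.05 and were higher, against 7.19% of all genes. DESeq2 called the same 3 genes, with adjusted p of 0.0116 for *H2-K1*, 0.00467 for *H2-D1* and 0.0435 for *Nlrc5*, where it called 11.3% of the genes it tested, and 5.26% in that direction. The call of these 3 therefore differs between the tools.

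With a term for the naming batch, edgeR called 8.68% of all genes tested (3.08% higher and 5.6% lower) but still 0 of the 10. The log2 fold changes were 0.63 for *H2-K1* (edgeR adjusted p = 0.0891), 0.76 for *H2-D1* (edgeR adjusted p = 0.0839), 0.64 for *Nlrc5* (edgeR adjusted p = 0.0659) and -0.49 for *Tap2* (edgeR adjusted p = 0.0908). Within libraries 1 to 4 the log2 difference was 0.55 for *H2-K1*, 0.67 for *H2-D1*, 0.40 for *B2m* and 0.50 for *Nlrc5*. Between libraries 5 and 6 the same genes differed by 0.83, 0.99, 1.17 and 0.88. Each of the 10 genes had the same sign on both sides of the batch, and the difference between libraries 5 and 6 was the larger for each of them. Leaving out 1 library at a time kept every sign, with 0 of 10 called each time; the log2 fold change then lay between 0.54 and 0.82 for *H2-K1*, 0.67 and 0.97 for *H2-D1*, 0.43 and 0.95 for *B2m*, 0.48 and 0.79 for *Nlrc5*, and -0.65 and -0.24 for *Tap2*. Single libraries moved 2 of these by over 1.5 times: *B2m* stood at 0.95 without library 1, and *Tap2* at -0.24 without library 6. The log2 fold change lay between 0.21 and 0.44 for *Psmb8*, 0.09 and 0.33 for *Psmb9*, and 0.07 and 0.37 for *Psmb10*. With all libraries it was 0.32, 0.18 and 0.21, so single libraries moved each of these immunosubunits by over 1.5 times as well.

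**Figure D4:**
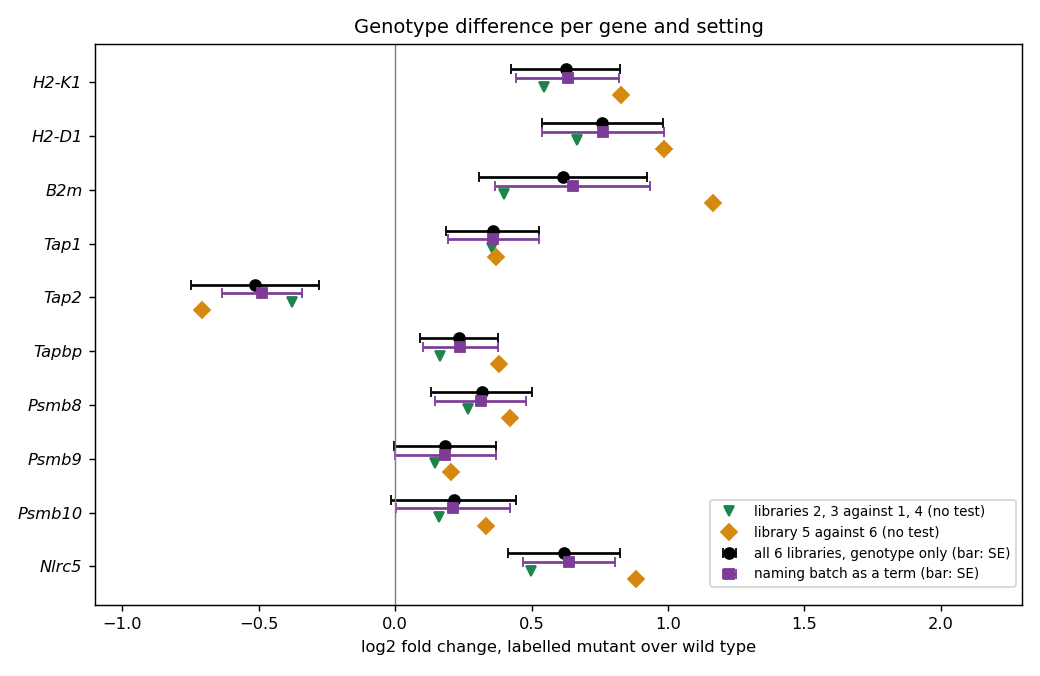
Log2 fold change of the libraries labelled mutant over wild type for each gene, from fits with genotype only and with an added naming batch term (bars: SE), and as plain log2 differences within each side of the naming batch. *Tap2* alone lies below 0 in all 4 settings, and the other 9 genes lie above 0 in all 4.

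Across libraries 9 of the genes, all but *Tap2*, had much the same order. Library 2 was the highest of all 6 for 7 of the 10 genes and library 5 for 2, while library 4 was the lowest for 5 and library 6 for 4. For all 9 genes with a higher mean in the libraries labelled mutant, libraries 2 and 5 both lay above every wild-type library. Library 3 differed from its genotype: it lay below wild-type library 1 for 7 of the 10. These include *Tap2*, for which a lower value goes with the genotype of library 3. The correlation of a gene with the mean of the other 9 over the 6 libraries, given as a description of points that share a library and its genotype, was between 0.80 for *Nlrc5* and 0.96 for *Tap1* in 9 genes, and -0.57 for *Tap2*. Among 9351 other genes with a mean of at least 10 CPM, the 8 closest to the mean profile of the 10 were *Natd1*, *Gla*, *Tet3*, *Rasa3*, *Ppp2r5a*, *Pdp1*, *Anxa6* and *Akr1a1*, with Pearson r from 0.98 to 0.99. The gene ranked 40 of the 9351 still had r of 0.96 over these 6 libraries. *Tet3*, a labelled target, was among the 8, at 163, 141 and 156 CPM in libraries 2, 3 and 5, against 145, 121 and 127 CPM in libraries 1, 4 and 6. *Tet2*, the other labelled target, was not.

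Transcript levels per kilobase of exon set the light chain first in both genotypes. The length used is the union of all annotated exons of a gene, 860 bases for *B2m* and 3660 for *Psmb9*. The order of the genes therefore depends on which transcripts are annotated. In the libraries labelled mutant *B2m* stood at 2721 ± 598 CPM per kilobase, *H2-D1* at 1104 ± 161, *H2-K1* at 396 ± 47.6 and *Tapbp* at 89.9 ± 10.3 (SD, n = 3 each). In wild type the same genes stood at 1776 ± 663, 653 ± 159, 257 ± 57.3 and 76.4 ± 9.10 CPM per kilobase (SD, n = 3 each). These 4 kept the same order with no overlap between neighbours in either genotype. Below them the libraries labelled mutant had *Psmb10* (41.4 ± 8.65), *Psmb8* (32.3 ± 5.40), *Tap2* (21.1 ± 3.67), *Tap1* (15.5 ± 2.295), *Psmb9* (11.0 ± 2.28) and *Nlrc5* (10.0 ± 1.77 CPM per kilobase), where only *Psmb8* and *Tap2* did not overlap as neighbours. Wild type had *Psmb10* (35.7 ± 8.44), *Tap2* (30.2 ± 8.66), *Psmb8* (25.9 ± 4.61), *Tap1* (12.1 ± 2.02), *Psmb9* (9.74 ± 1.30) and *Nlrc5* (6.53 ± 1.49 CPM per kilobase). There *Tap2* stood above *Psmb8* with overlapping libraries, while *Psmb8* and *Tap1*, and *Psmb9* and *Nlrc5*, did not overlap.

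Some of these counts could be shared with other genes. The libraries were made with a stranded kit, but the strand setting of the counting is not given in the sources used here. *B2m* lies wholly within *Patl2* on the opposite strand, which had 20, 7 and 16 counts in libraries 2, 3 and 5, against 13, 11 and 4 in libraries 1, 4 and 6, while *B2m* had between 13286 and 40404. *Tap1* and *Psmb9* share 212 bases on opposite strands, and *Tapbp* shares 3422 bases on the same strand with *Zbtb22*, which had between 299 and 519 counts. *Nlrc5* shares 748 bases with *9330175E14Rik* on the opposite strand. That gene had 183, 72 and 104 counts in libraries 2, 3 and 5, against 43, 62 and 44 in libraries 1, 4 and 6, where *Nlrc5* had between 538 and 1457. Its counts did not overlap between genotypes either, and its part in the *Nlrc5* counts was not tested. Of the 75-base windows in transcripts, the length of a read, 3.10% for *H2-K1* and 5.40% for *H2-D1* also occur in other genes, and 0% for *B2m*, *Tap1*, *Tap2*, *Nlrc5* and the 3 immunosubunits. Summed over *H2-K1*, *H2-D1* and the other H2 heavy-chain genes of the lists, 15 in all, the level was 4979, 3749 and 4605 CPM in the libraries labelled mutant, against 3449, 2322 and 2445 CPM in wild type. This sum, added after the data were seen, did not overlap between genotypes, and *H2-K1* and *H2-D1* made up between 88.3% and 90.9% of it.

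The other heavy-chain genes leaned the same way. Of 15 tested, 14 lay above 0 on the log2 fold scale (median 0.50), and 6 had higher values with no overlap between genotypes, against 9.91% of all genes. By edgeR 0 of the 15 were called (5 higher and 0 lower at unadjusted p under 0.05, against 7.19% and 12.4% of all genes), and DESeq2 called 4 higher, against 5.26%. Like the class I set, these lists were chosen with earlier results of these data known. The most abundant were *H2-T23*, whose product Qa-1 is read by natural killer cell receptors, at 189 ± 35.1 against 149 ± 18.4 CPM, and *Fcgrt*, the neonatal Fc receptor, at 191 ± 30.04 against 127 ± 10.8 CPM (SD, n = 3 each). *Fcgrt* had no overlap and a log2 fold change of 0.59 (edgeR adjusted p = 0.113, SE 0.149). Named after their values were seen, *H2-M3* stood at 32.6 ± 3.57 against 15.6 ± 4.26 CPM and *H2-Q4* at 87.1 ± 17.3 against 41.4 ± 11.2 CPM (SD, n = 3 each), with log2 fold changes of 1.07 (edgeR adjusted p = 0.0920, SE 0.222) and 1.08 (edgeR adjusted p = 0.0952, SE 0.235). Once the naming batch was a term, 4 of the 15 rose, against 3.08% of all genes: *Fcgrt*, *H2-M3*, *H2-Q4* and the iron regulator gene *Hfe*. *H2-Q4* shares 7.02% of its 75-base windows with other genes and *H2-M3* 0%.

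The lists of endoplasmic reticulum loading and trimming genes, constitutive proteasome genes and proteasome activators did not lean that way. Of 8 endoplasmic reticulum chaperone and peptide-trimming genes, 3 lay above 0 (median -0.04) and 0 had genotypes without overlap; edgeR gave 0 with unadjusted p under 0.05 and DESeq2 called 0. The chaperone genes *Calr* and *Hspa5* stood at 1005 ± 306 and 920.4 ± 142 CPM in the libraries labelled mutant, against 1111 ± 345 and 973 ± 195 CPM in wild type (SD, n = 3 each). Of 6 constitutive proteasome and assembly genes, 2 lay above 0 (median -0.19), and *Psmb7* had lower values with no overlap, as had 16.9% of all genes. *Psmb7* was also the 1 gene with edgeR unadjusted p under 0.05 (12.4% of all genes were lower at that p), and edgeR and DESeq2 called 0 of the 6. Of 4 genes of the PA28 and related proteasome activators 2 lay above 0 (median -0.05). Either tool called 0, and 1 was lower at edgeR unadjusted p under 0.05, against 12.4% of all genes. Of these *Psme4* stood at 151 ± 7.88 against 151 ± 11.7 CPM, and *Psme2*, an interferon-inducible PA28 subunit gene, at 110.4 ± 14.1 against 150.4 ± 13.3 CPM (SD, n = 3 each), with no overlap and a log2 fold change of -0.45 (edgeR adjusted p = 0.148, SE 0.134).

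The regulators and the interferon gamma pathway were mixed. Of 14 regulators of class I transcription, 10 lay above 0 (median 0.11), and 2 had higher and 1 lower values with no overlap (9.91% and 16.9% of all genes). By edgeR 0 were called (2 higher and 1 lower at unadjusted p under 0.05, against 7.19% and 12.4% of all genes), and by DESeq2 1 higher, against 5.26%. *Irf8*, a lineage factor of macrophages and dendritic cells, stood at 178 ± 18.7 against 96.8 ± 34.97 CPM (SD, n = 3 each), a log2 fold change of 0.88 (edgeR adjusted p = 0.150, SE 0.268), and *Nfkb1* at 142 ± 7.90 against 151 ± 13.8 CPM. *Irf1*, an interferon-induced transcription factor gene named after its values were seen, had a log2 fold change of 0.32 with overlapping genotypes (edgeR adjusted p = 0.369). Of 8 genes of interferon gamma signalling 6 lay above 0 (median 0.30), and 2 had higher and 1 lower values with no overlap (9.91% and 16.9% of all genes). EdgeR called 0 (2 higher and 1 lower at unadjusted p under 0.05, against 7.19% and 12.4% of all genes), and DESeq2 called 2 higher, against 5.26%. The lower gene, *Ptpn2*, named after its values were seen, had a log2 fold change of -0.34 (edgeR adjusted p = 0.222, SE 0.129). The receptor gene *Ifngr1* stood at 253 ± 10.3 against 173 ± 31.8 CPM and the kinase gene *Jak1* at 335 ± 29.4 against 258 ± 30.5 CPM (SD, n = 3 each), both without overlap (log2 fold changes 0.55 and 0.38, edgeR adjusted p = 0.138 and 0.193). Once the naming batch was a term, *Irf8* and *Ifngr1* rose, where edgeR called 3.08% of all genes higher.

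Of 16 interferon gamma-inducible genes tested, 12 lay above 0 (median 0.37), with 2 higher and 1 lower without overlap, against 9.91% and 16.9% of all genes. EdgeR called 0 (4 higher and 1 lower at unadjusted p under 0.05, against 7.19% and 12.4% of all genes). DESeq2 called 2 higher and 1 lower, against 5.26% and 6.0% of all genes. The GTPase gene *Irgm1* stood at 107 ± 27.8 against 62.3 ± 17.8 CPM, and the adhesion gene *Icam1* at 78.9 ± 2.203 against 106 ± 6.85 CPM (SD, n = 3 each). *Icam1* had a log2 fold change of -0.43 (edgeR adjusted p = 0.0946, SE 0.0930) and fell once the naming batch was a term. *Tgtp1* and *Cxcl9* did not pass the count filter.

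Of 9 cross-presentation genes, 7 lay above 0 (median 0.14), and 2 were higher and 1 lower without overlap (9.91% and 16.9% of all genes). EdgeR called 0 (2 higher and 1 lower at unadjusted p under 0.05, against 7.19% and 12.4% of all genes). DESeq2 called 1 in each direction, against 5.26% higher and 6.0% lower. *Cybb*, the phagocyte oxidase gene, stood at 735 ± 163 against 625 ± 238 CPM, and *Rac2* at 323 ± 60.8 against 591 ± 174 CPM (SD, n = 3 each). *Wdfy4*, which dendritic cells need to present antigen of engulfed cells on class I, was named after its values were seen. It stood at 114 ± 17.5 against 55.1 ± 15.3 CPM (SD, n = 3 each), a log2 fold change of 1.05 (edgeR adjusted p = 0.0922, SE 0.219). Once the naming batch was a term, *Wdfy4* rose and *Rac2* fell, where edgeR called 3.08% of all genes higher and 5.6% lower.

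Of 8 genes of ligands that T cells and natural killer cells read beside class I, 2 lay above 0 (median -0.63). Without overlap 2 were higher and 4 lower (9.91% and 16.9% of all genes). The 4 lower were *Raet1d*, *Raet1e*, *H60b* and *Pdcd1lg2*, named after their values were seen. They had only between 2 and 40 counts in a library, and DESeq2 gave them no adjusted p. EdgeR called 0 of the 8 (1 in each direction at unadjusted p under 0.05, against 7.19% higher and 12.4% lower of all genes), and DESeq2 called 1 higher, against 5.26%. The checkpoint ligand gene *Cd274* stood at 37.9 ± 15.8 against 52.9 ± 4.86 CPM, and the costimulatory gene *Cd86* at 44.2 ± 5.58 against 20.9 ± 5.22 CPM (SD, n = 3 each). *Cd86* had a log2 fold change of 1.09 (edgeR adjusted p = 0.0826, SE 0.209), and it rose once the naming batch was a term (edgeR adjusted p = 0.0243).

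**Figure D5:**
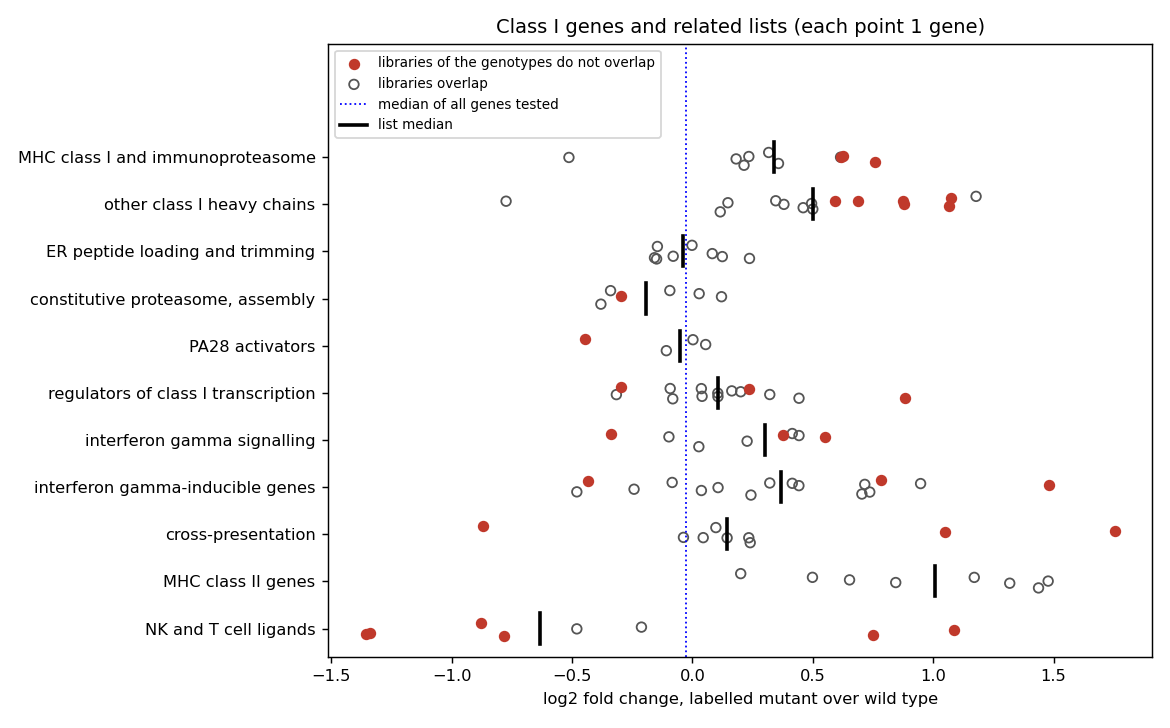
Log2 fold change of the libraries labelled mutant over wild type for each tested gene of the class I set and of 10 related lists, with the list median as a black bar and the median of all genes tested as a dotted line. Filled points are genes whose libraries do not overlap between genotypes; in the class I set these are *H2-K1*, *H2-D1* and *Nlrc5*.

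The class II presentation genes had a higher median and another pattern over libraries. Of 8 tested, 8 lay above 0 (median 1.01) and 0 had genotypes without overlap. EdgeR and DESeq2 called 0, with 1 higher at edgeR unadjusted p under 0.05, against 7.19% of all genes. With the naming batch term edgeR called 4 higher, against 3.08% of all genes. *Cd74*, the invariant chain gene, stood at 1112, 934 and 3130 CPM in libraries 2, 3 and 5, against 733, 488 and 1078 CPM in libraries 1, 4 and 6, so library 5 stood far above the rest. *H2-Aa*, a class II chain gene, averaged 609.6 ± 548 against 225 ± 128 CPM (SD, n = 3 each). For *H2-K1* and *H2-D1* library 5 lay between libraries 3 and 2. *Ciita*, the transactivator of class II genes and the counterpart of *Nlrc5*, averaged 55.1 ± 31.02 against 48.1 ± 5.17 CPM (SD, n = 3 each, named after its values were seen). Its levels were 41.8, 33.0 and 90.6 CPM in libraries 2, 3 and 5, against 52.6, 42.4 and 49.1 CPM in libraries 1, 4 and 6. Leaving out 1 library at a time, the log2 fold change of *Ciita* lay between -0.36 and 0.46, so its sign depended on single libraries. Whether class I and class II genes differ in their response was not tested.

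Among markers of other cells, the summed levels of macrophage markers and of B cell and plasmacytoid dendritic cell markers did not overlap between genotypes, and the other sums did. Of 10 macrophage markers 9 lay above 0 (median 0.89), and their summed level was 9439, 9022 and 9651 CPM in libraries 2, 3 and 5, against 7311, 5809.8 and 5908 CPM in libraries 1, 4 and 6. Of these 10, 6 were higher with no overlap, against 9.91% of all genes. By edgeR 0 were called (7 higher at unadjusted p under 0.05, against 7.19%), with the naming batch term 5 rose, against 3.08%, and by DESeq2 7 rose, against 5.26%. *Csf1r*, the most abundant of these markers, stood at 3154 ± 120 against 2908 ± 303 CPM (SD, n = 3 each). Of the tested markers 3 of 5 lay above 0 for dendritic cells, 6 of 6 for B and plasmacytoid dendritic cells, 7 of 7 for neutrophils and 6 of 8 for stromal cells. With the naming batch term 3 neutrophil markers and 1 of the B cell and plasmacytoid dendritic cell markers (*Tcf4*) rose, against 3.08% of all genes. DESeq2 called 1 of that second list higher (*Cd79b*), against 5.26%. Dendritic cell markers summed to between 12.1 and 26.3 CPM in the libraries labelled mutant and between 15.2 and 33.1 CPM in wild type. Markers that define T cells were at or near 0: *Cd3e* had 0 counts in the 3 libraries labelled mutant and 0, 1 and 0 in libraries 1, 4 and 6, and *Cd8a* had between 0 and 4 counts in the libraries labelled mutant and between 2 and 4 in wild type. *Cd4*, which macrophages can also express, made up most of the T and NK cell sum of 172, 155 and 123 CPM in libraries 2, 3 and 5, against 154, 71.0 and 34.5 CPM in libraries 1, 4 and 6. B cell and plasmacytoid dendritic cell markers summed to 412, 290.3 and 293 CPM against 264, 193 and 143 CPM, neutrophil markers to between 356 and 1119.5 CPM against between 206 and 735 CPM, and stromal markers to between 804 and 3648 CPM against between 958 and 2694 CPM. The part of these cells, macrophages included, in the class I values was not tested.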

How the data were processed

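Per the labels' protocols, stranded mRNA libraries were sequenced as 75-base single reads. The submitters' processing notes name mm10 and, as tools, SAMtools 0.1.19, Bowtie2 2.2.3 and TopHat2 2.0.13. How reads were counted, with which strand setting and gene models, is not given in the sources used here. The authors deposited raw counts per Ensembl gene, not normalized. Of 23264 rows, 60 repeated a gene with the same counts and were dropped. Columns gave the genotype but no replicate number. The labels give each sample a sex but no animal or culture, so the p-values reflect the spread of 3 libraries a genotype, part of which may be technical.

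From these counts, filterByExpr, TMM scaling and the quasi-likelihood test of edgeR 4.0.16 (R 4.3.3) were run with genotype as the only term, and DESeq2 1.42.0 as an alternative; SEs were derived from the F statistic and the fold change. The test was tried on simulated counts. Exon lengths and shared windows came from GENCODE M21, which held 99.8% of the gene IDs, and promoters from RefSeq (GRCm38.p6). The members, lists and the naming batch term were chosen with earlier results of these data known. Beside *Tet2*, *Tet3* and the 10 genes, the rule named the members of each list past the threshold, otherwise the 2 with the highest mean, and the 8 genes most like the set. Genes outside it are said to be named after their values were seen. Exceptions are the ratio denominators, *Hfe* (called with the naming batch term) and genes said to miss the count filter. Genes shown for their promoter or shared windows, or as overlapping or marker genes, are exceptions too.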

Additional observations from a re-analysis of the deposited data

How the results depend on the processing

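The count of all genes called moved with the model. Against 7 higher and 3 lower, library totals alone gave 42 and 46, no count filter 46 and 35, DESeq2 629 and 717, the naming batch term 433 and 786, and libraries 1 to 4 alone 1 and 0. Leaving out 1 library gave between 0 and 2 higher and between 0 and 1 lower in edgeR, with 769 to 1182 higher and 1005 to 1576 lower at unadjusted p under 0.05. Libraries 1 to 4 alone had 678 higher and 1140 lower at that p. The number called among the 10 genes was 0 in each of these edgeR settings and 3 in DESeq2. Of 130 alternative log2 fold changes of the 10 genes, 0 changed sign. The ratio differences, leaving out 1 library, lay between 0.43 and 0.93 for *Psmb8* to *Psmb5*, 0.34 and 0.69 for *Psmb9* to *Psmb6* and 0.38 and 0.70 for *Psmb10* to *Psmb7*. No paired analysis was possible because the columns carry no replicate numbers. The lowest count of any of the 10 genes in a library was 305.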
